A study of Mus musculus with 6 samples.

Results

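The genes of the mitochondrial ribosome were examined in single-cell RNA-seq libraries of immortalised mouse granulocyte-macrophage progenitors (iGMPs). They were taken as every gene of the count table whose name starts with Mrpl or Mrps followed by a digit, with pseudogene names left out. The rule found 77 of the 27998 genes, 48 named Mrpl for the large subunit and 29 named Mrps for the small subunit. The lineage of iGMPs and the response to loss of CAF-1 or of HOXA9 were the subject of the study, and the question here is how the RNA of the mitochondrial ribosome moved with each of them.

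Mitochondria keep a small genome of their own, and its mRNAs encode core subunits of the respiratory chain. These mRNAs are read by a dedicated ribosome whose RNAs are encoded in the mitochondrial genome and whose proteins are all encoded in the nucleus, made in the cytosol and imported. Part of the proteins have a counterpart in the bacterial ribosome, and the others are found only in mitochondria. Progenitors of the myeloid lineage divide and respire actively, whereas mature neutrophils hold few mitochondria and rely largely on glycolysis.

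All cells came from Lys-GFP bone marrow of the strain labelled C57BI/6 and carried HOXA9 fused to an estrogen receptor domain (ER-HOXA9), which holds them in self-renewal while estradiol is present, in medium with stem cell factor. In the CAF-1 OFF arm, a clone with an IPTG-inducible short hairpin RNA that targets the CAF-1 subunit Chaf1b (CAF-1 deposits histones behind the replication fork) was sampled at 0 h in estradiol and after 48 and 96 h with IPTG. In the HOXA9 OFF arm, a clone with a control hairpin was sampled at 0 h in estradiol and 48 and 96 h after estradiol had been washed out, which inactivates HOXA9. Each arm is thus 1 clonal line, the cells are an engineered culture rather than a tissue, and clone and treatment cannot be told apart between the arms. There was 1 library per group, so no test between groups was possible. Differences are described by size, with 95% intervals that cover counting error only.

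Of 7821 barcodes, 5872 cells were kept, between 473 and 1510 per library, with 3524285 to 5589486 UMIs per library (a UMI, unique molecular identifier, marks 1 captured transcript). The uninduced libraries lost 41.7% (CAF-1 OFF) and 66.2% (HOXA9 OFF) of their barcodes to the limits on detected genes and mitochondrial UMIs, against 0.198% to 18.3% later. Kept cells of different libraries shared 16 barcode sequences. Chaf1b went from 35.6 CPM (counts per 1000000 UMIs) before induction to 3.22 at 48 h and 6.49 at 96 h of CAF-1 OFF. It had 51.5, 15.3 and 1.13 CPM in HOXA9 OFF. The progenitor label held at 0 h: all 6 progenitor markers were detected, with a summed level of 7142 and 6286 CPM, and the 6 neutrophil markers summed to 0 and 0.477 CPM. At 96 h of HOXA9 OFF the neutrophil markers reached 133169 CPM and the progenitor markers 94.8 CPM, so the cells of that library no longer carried the progenitor profile.

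The members were well measured. Levels below are CPM computed after adding up the UMIs of all kept cells in a library. Because each molecule is read once at its 3′ end, a level counts molecules and carries no term for gene length. At 0 h the 77 genes held 1.23% of the UMIs of the CAF-1 OFF library and 1.20% of those of the HOXA9 OFF library, spread over many genes of like level. The median gene stood at 124 and 121 CPM, and the 8 highest members made up 25.7% and 26.1% of the total. Mrpl33, the counterpart of bacterial L33, led in every library and stood at 604 CPM at 0 h of CAF-1 OFF. In the same library Mrpl12 had 415 CPM, Mrpl20 391, Mrpl18 385, Mrps14 366, Mrpl42 350.0, Mrps33 338 and Mrps21 225 CPM. The 20 CPM limit for comparisons, set on the mean of the 6 libraries, was reached by 74 members. The other members were Mrps2 and Mrps27, at 21.1 and 19.2 CPM at 0 h of CAF-1 OFF and 3 UMIs each at 96 h of HOXA9 OFF, and Mrpl53, with 3 UMIs in all libraries together. Values for Mrpl33, Mrps6 and Mrps23 are less certain at the level of the single gene, because their gene models overlap Gm38424, Slc5a3 and Cuedc1 on the same strand. For 7 other members, among them Mrps28, Mrpl44 and Mrps9, the strand of an overlapping gene model was not known, so the same may hold.

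Before induction the members differed little between the arms. Summed over the 77 members, the level was 12323 CPM (12217 to 12429) in the uninduced CAF-1 OFF library and 12029 CPM (11924 to 12134) in the uninduced HOXA9 OFF library, a ratio of 0.976 (0.964 to 0.988). Per member, the log2 ratio of HOXA9 OFF to CAF-1 OFF, taken after adding 10 CPM to both levels, had a median of -0.06, beside -0.04 over all 4789 genes past the 20 CPM limit. It ran from -0.44 for Mrpl27, a counterpart of bacterial L27 at the peptidyl transferase centre, to 0.47 for Mrps34, a mitochondria-specific small-subunit protein. Mrps35 (-0.36), Mrps22 (-0.30), Mrps30 (-0.30) and Mrps9 (-0.29) were the other low members, and Mrpl21 (0.23), Mrpl52 (0.22), Mrps21 (0.20) and Mrpl22 (0.17) the other high ones. No member differed at least 2-fold between these libraries, and of all genes 0.752% were at least 2-fold higher and 0.146% at least 2-fold lower. The SD over the 74 members was 0.14, of which counting error alone gives 0.08. This range between untreated clones is the scale for the later differences. The rank order of the 77 levels was nearly the same in both libraries (Spearman's rho 0.980 across genes, which share their libraries and are not replicates).

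**Figure D1:**
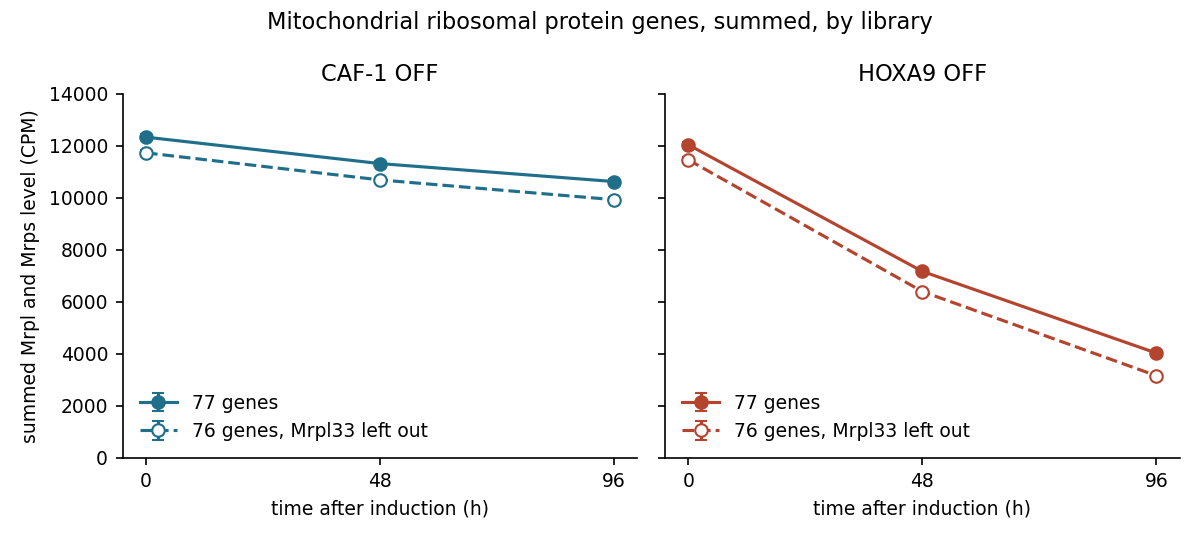
Summed level of the Mrpl and Mrps genes (CPM, from 0) against time after induction (h) in CAF-1 OFF (left) and HOXA9 OFF (right), for all 77 genes (filled points) and without Mrpl33 (open points), with 95% Poisson intervals that are mostly smaller than the points. The CAF-1 OFF libraries go from 12323 to 10616 CPM and the HOXA9 OFF libraries from 12029 to 4026 CPM.

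In CAF-1 OFF the mitochondrial ribosome RNA was modestly lower. At 48 h the sum was 11307 CPM (11219 to 11395). By 96 h it was 10616 CPM (10529.5 to 10704). These sums were 1.09-fold and 1.16-fold (1.15 to 1.17) below 0 h. The median log2 ratio of the members was -0.14 at 48 h and -0.25 at 96 h, while the median over all genes was 0.00 and -0.08. Lower values were frequent and small: 57 of 74 members lay below 0 at 48 h, against 49.8% of all genes, and 64 (86.5%) at 96 h, against 57.6%. No member was at least 2-fold lower or higher at either time. The share of all genes at least 2-fold lower was 0.0418% at 48 h and 0.856% at 96 h, and 2.76% and 5.22% were at least 2-fold higher. Outside the span that members showed between the uninduced libraries lay 6 members at 48 h (8.11%) and 17 at 96 h (23.0%), all on the low side. Of all genes 14.3% lay outside it at 48 h (4.59% below and 9.73% above) and 31.7% at 96 h (16.7% below and 14.9% above). The span was set by the members themselves. All genes already spread more between the uninduced libraries (SD 0.26, against 0.14 for the members), so these shares cannot be compared with those of the members. From 48 to 96 h the median was -0.11, with 0 members past 2-fold in either direction and 0.710% and 0.167% of all genes higher and lower.

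The members with the lowest ratios at 96 h of CAF-1 OFF came from both subunits. Mrps35, a mitochondria-specific protein of the small subunit, went from 96.8 CPM at 0 h to 67.6 at 48 h and 47.8 at 96 h (log2 ratio -0.89; 2.02-fold lower, 1.73 to 2.37, when nothing is added to the levels). Mrps6, the counterpart of bacterial S6, had 52.9, 32.6 and 25.2 CPM at the same times (-0.84). Mrpl3, whose bacterial counterpart reaches the peptidyl transferase centre, had 78.8, 54.4 and 41.5 CPM (-0.78). These genes were lower at each step and were outside the span of the uninduced clones. Mrpl34 had 262, 211 and 155 CPM (-0.73), Mrps25 had 107, 84.6 and 61.4 CPM (-0.71), and Mrps30 had 104, 72.3 and 67.3 CPM (-0.56), while Mrps18b had its lowest ratio at 48 h (-0.61). Mrpl12, which forms the stalk that recruits translation factors and is also known to bind the mitochondrial RNA polymerase, stood at 415, 302 and 253 CPM (-0.69). Mrpl42, of near-equal level at 0 h, stood at 350.0, 328 and 325 CPM (-0.10).

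At the other end, 10 members lay above 0 at 96 h of CAF-1 OFF. Mrpl52 had 102, 112 and 137 CPM (log2 ratio 0.40), and Mrpl4, which lines the start of the exit tunnel in bacteria, had 81.6, 114 and 105 CPM (0.33, and 0.43 at 48 h). Mrpl24 had 110, 118 and 136 CPM (0.28), Mrpl33 had 604, 627 and 697 CPM (0.20), and Mrps21 had 225, 256 and 254 CPM (0.17). Each of these values lay within the span between the uninduced clones. Mrps36 and Mrpl14 stood at 0.18 and 0.15 at 48 h of CAF-1 OFF and at 0.08 and 0.09 at 96 h. Both 96 h values turned negative when only cells with at most 5% mitochondrial UMIs were used.

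In HOXA9 OFF most mitochondrial ribosome genes were much lower. At 48 h the sum was 7164 CPM (7092 to 7237). By 96 h it was 4026 CPM (3959.8 to 4093). These sums were 1.68-fold (1.66 to 1.70) and 2.99-fold (2.93 to 3.04) below 0 h. At 48 h 28 of 74 members (37.8%) were at least 2-fold lower, against 19.6% of all genes, and at 96 h 64 members (86.5%), against 39.8% of all genes. No member was at least 2-fold higher at either time, against 13.0% of all genes at 48 h and 18.1% at 96 h. The median log2 ratio was -0.88 at 48 h and -1.78 at 96 h, beside -0.23 and -0.56 over all genes. Below 0 lay 69 members (93.2%) at 48 h, against 60.2% of all genes, and 72 (97.3%) at 96 h, against 64.1%. Between 48 and 96 h the median was -0.91, and 30 members were at least 2-fold lower, with 17.8% of all genes lower and 6.56% higher by that size. With 1 library per time, a lower level per cell and fewer cells with a high level cannot be told apart in these sums.

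**Figure D2:**
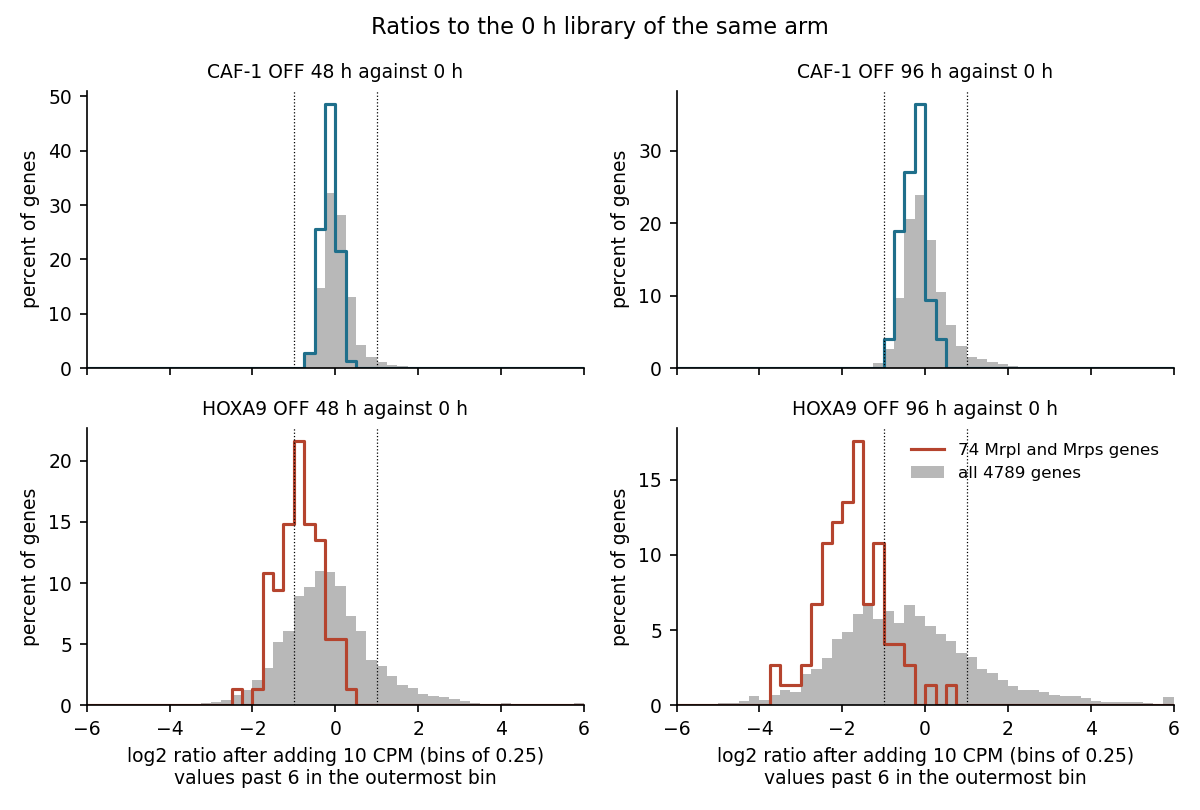
Distribution of log2 ratios to the 0 h library of the arm (bins of 0.25, after adding 10 CPM) for 74 Mrpl and Mrps genes (line) and all 4789 genes (grey bars), in percent of genes, with dotted lines at 2-fold. In CAF-1 OFF the members lie between the dotted lines at 48 and 96 h, and in HOXA9 OFF 28 and then 64 of 74 lie at or below the lower line.

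The size of this difference depends on what the level is set against. The HOXA9 OFF library at 96 h held abundant neutrophil RNA, with S100a8 at 65259.5 CPM, and the cytosolic ribosomal protein genes made up 8.82% of its UMIs, against 28.4% at 0 h. With TMM scaling factors, which moved the median of all genes at 96 h from -0.56 to -0.13, the median of the members was -1.39 and the summed level was 0.469 of 0 h. Per cell, the members had 107 UMIs at 0 h, 27.1 at 48 h and 9.40 at 96 h, but the median cell also held 8660, 3536 and 2044 UMIs of all genes. In CAF-1 OFF the members had 80.3, 68.2 and 62.9 UMIs per cell.

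The stalk and its base showed how far members of a single structure could differ. Mrpl12, the stalk protein, had the lowest log2 ratio of all members at both times, taken after adding 10 CPM. It stood at 409 CPM at 0 h (1713 UMIs), 76.5 CPM at 48 h (406 UMIs) and 21.6 CPM at 96 h (76 UMIs), 19.0-fold lower (15.1 to 24.2) with a log2 ratio of -2.28 and then -3.73. By fold with nothing added, some members of lower level, such as Mrps28 and Mrps22 below, were lower still at 96 h. Mrpl11, which forms the stalk base with ribosomal RNA, had 175, 66.3 and 12.8 CPM (13.7-fold lower, 10.1 to 19.0, log2 ratio -3.02). Mrpl10, which anchors the stalk protein, had only 32.5, 24.1 and 21.6 CPM (1.51-fold lower, 1.13 to 2.02, log2 ratio -0.43). Mrpl1, the protein of the opposite stalk, added here after its values were seen, had 78.8, 52.9 and 49.1 CPM (1.60-fold lower, 1.33 to 1.94). At 96 h the RNA of Mrpl10 and of Mrpl12 was thus at equal level, whereas at 0 h that of Mrpl12 was far above it.

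Other members with very low ratios at 96 h came from both subunits. Mrps28, related to bacterial S1 and a small-subunit protein, had 161, 34.3 and 4.26 CPM, with 15 UMIs left (37.8-fold lower, 22.8 to 68.0, log2 ratio -3.59). Mrpl42, a mitochondria-specific large-subunit protein, had 332, 105 and 23.6 CPM (14.1-fold lower, 11.3 to 17.8, log2 ratio -3.35). Mrpl13 had 120, 39.5 and 7.95 CPM (15.1-fold lower, 10.3 to 23.0, log2 ratio -2.86). Mrps22, a mitochondria-specific small-subunit protein, had 54.9 and 11.7 CPM and then 2 UMIs in all (96.7-fold lower, 26.5 to 803). For such low genes the log2 ratio, -2.62 for Mrps22, understates the change because 10 CPM is added. At 48 h the lowest log2 ratios after Mrpl12 and Mrps28 were those of Mrpl52 (-1.72), Mrpl47 (-1.70) and Mrps18b (-1.65). Mrpl52 was high in CAF-1 OFF at 96 h and had 121, 29.8 and 21.6 CPM in HOXA9 OFF, so that nearly all of its difference was present by 48 h.

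Few members kept their level. Mrpl33 had 578, 774 and 870.0 CPM at 0, 48 and 96 h (log2 ratio 0.41 and 0.58), above 0 under each of the 8 other settings tried. As a share of the member UMIs it went from 4.81% to 10.8% and 21.6%. Per cell, however, it had 5.12, 2.93 and 2.03 UMIs, as all UMIs per cell were fewer. Mrps21, the counterpart of bacterial S21, had 260, 254 and 263 CPM (log2 ratio -0.03 and 0.02), a sign that turned with the scaling. Mrpl43, a mitochondria-specific protein, had 224, 211 and 177 CPM (-0.32 at 96 h) and was above 0 with both alternative scaling factors. Mrpl14, at the interface of the subunits, had 204, 205 and 139 CPM (-0.52 at 96 h, but 0.01 with median-of-ratios factors). Without Mrpl33 the other 76 members summed to 11450.5, 6391 and 3156 CPM, 3.63-fold lower at 96 h (3.55 to 3.70). By 96 h the 8 highest members made up 48.5% of the member UMIs, and the rank order of the 77 levels had moved further from 0 h (Spearman's rho 0.764, against 0.883 at 48 h and 0.972 and 0.959 at the same times of CAF-1 OFF).

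Some members were near their 0 h level at 48 h and lower at 96 h. Mrps18c had 202, 203 and 96.5 CPM (log2 ratio 0.01 and -0.99). Mrpl24, at the mouth of the exit tunnel, had 123, 144 and 67.3 CPM (0.21 and -0.78). Mrpl45, which tethers the ribosome to the inner membrane, had 58.5, 68.0 and 25.5 CPM (0.19 and -0.95). In contrast, Mrpl4, also at the tunnel, had 82.8, 64.8 and 34.3 CPM (-0.31 and -1.07), and Mrpl22 had 82.6, 37.3 and 18.7 CPM (-0.97 and -1.69). Of the 72 members with a lower CPM at 96 h, 55 had passed more than 50% of their difference by 48 h, with a median of 65.1% and a range from -37.6% (Mrpl24) to 91.7% (Mrpl52).

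**Figure D3:**
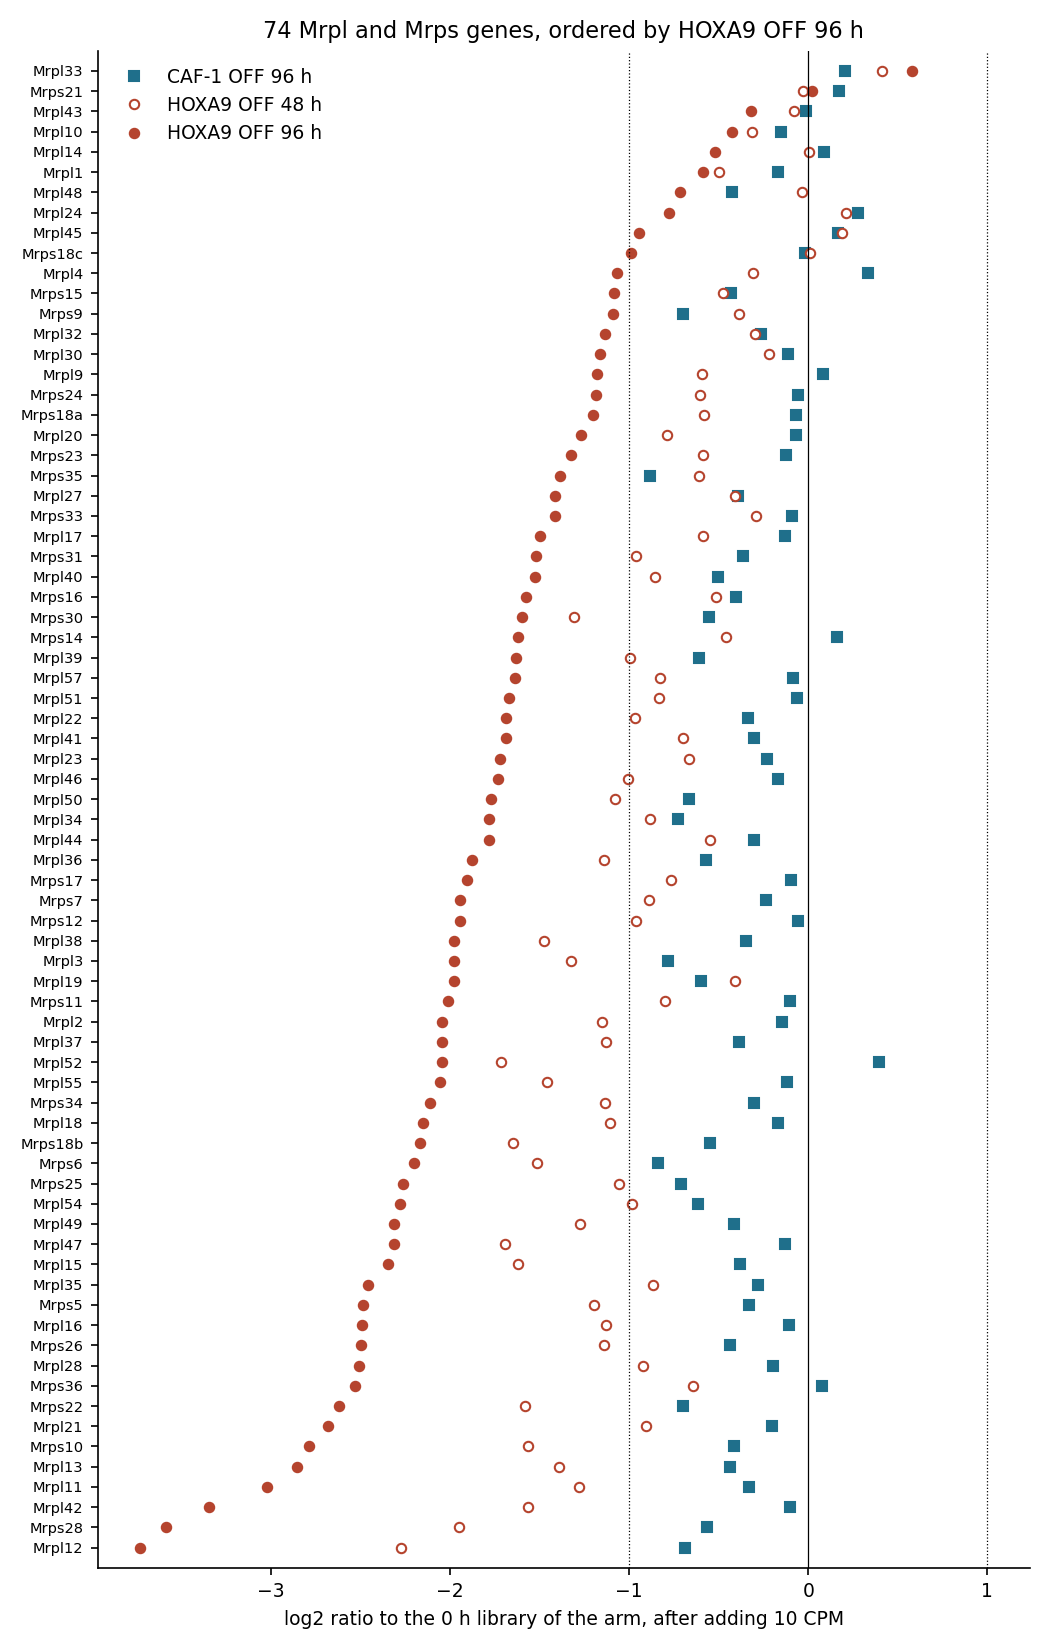
Log2 ratio to the 0 h library of the arm, after adding 10 CPM, of 74 Mrpl and Mrps genes at 96 h of CAF-1 OFF (squares), 48 h of HOXA9 OFF (open circles) and 96 h of HOXA9 OFF (filled circles), ordered by the last, with dotted lines at 2-fold. Values at 96 h of HOXA9 OFF run from -3.73 (Mrpl12) to 0.58 (Mrpl33), while those of CAF-1 OFF stay between -0.89 and 0.40.

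The most abundant of the remaining members were 2.51-fold to 4.89-fold lower at 96 h of HOXA9 OFF. Mrps14, the counterpart of bacterial S14, had 398, 286 and 122 CPM in HOXA9 OFF (3.25-fold lower, 2.92 to 3.62), and Mrpl20 had 378, 214 and 151 CPM (2.51-fold lower, 2.27 to 2.77). Mrpl18, which in bacteria binds the 5S ribosomal RNA, had 383, 172 and 78.3 CPM (4.89-fold lower, 4.30 to 5.58). Mrps33 had 334, 271 and 119 CPM (2.81-fold lower, 2.52 to 3.14). In CAF-1 OFF these genes stayed between -0.17 and 0.16 on the log2 scale at 96 h. The 5 members with the lowest ratios at 96 h of CAF-1 OFF had log2 ratios of -1.39 (Mrps35), -2.20 (Mrps6), -1.98 (Mrpl3), -1.78 (Mrpl34) and -2.26 (Mrps25) at 96 h of HOXA9 OFF, and none of them was among the 5 lowest there. Mrps35 had 73.3, 44.6 and 21.9 CPM in HOXA9 OFF and Mrps6 had 46.5, 9.79 and 2.27 CPM. The added 10 CPM shrinks the log2 ratio of a gene as low as Mrps6. That it was not among the 5 lowest thus holds on that scale only.

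Mrps18a, Mrps18b and Mrps18c are related to bacterial S18, but the first sits in the large subunit. At 96 h of HOXA9 OFF they were 2.59-fold, 6.56-fold and 2.09-fold lower, from 119, 112 and 202 CPM at 0 h. Mrps30, also part of the large subunit despite its name, had 82.3, 27.3 and 20.4 CPM (4.03-fold lower, 3.12 to 5.27). Mrps36, whose protein is now known as a component of the 2-oxoglutarate dehydrogenase complex rather than of the ribosome, had 212, 132 and 28.4 CPM (7.46-fold lower, 6.06 to 9.27). Mrps12, at the decoding centre, had 186, 90.6 and 40.9 CPM (4.54-fold lower, 3.80 to 5.47). Mrpl44, a mitochondria-specific protein with an RNase III fold, had 122, 80.4 and 28.4 CPM (4.31-fold lower, 3.47 to 5.39).

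The ratios of the subunits and of the evolutionary classes overlapped. Mrps18a and Mrps30 were counted with the large subunit, and Mrps36 was left out. Although both are related to bacterial S18, Mrps18b was counted as mitochondria-specific and Mrps18c as having a bacterial counterpart. At 96 h of HOXA9 OFF the 49 tested genes of the large subunit had a median log2 ratio of -1.73, with 41 at least 2-fold lower, and the 24 of the small subunit -1.92, with 22. The ranges ran from -3.73 to 0.58 and from -3.59 to 0.02. Of all genes 39.8% were at least 2-fold lower at that time. Large-subunit UMIs per small-subunit UMI numbered 2.23 at 0 h, 2.19 at 48 h and 2.55 at 96 h, and between 2.22 and 2.29 in CAF-1 OFF. The higher value at 96 h rested on Mrpl33, without which the ratios in HOXA9 OFF were 2.07, 1.84 and 1.78, so that the direction turned. The 9 tested mitochondria-specific genes of the small subunit were all at least 2-fold lower at 96 h (median -2.11, range -2.62 to -1.32). The sum of all 10 genes of this class was 4.43-fold lower (4.13 to 4.76). The other classes had medians of -1.91 (small, bacterial counterpart, 15 tested genes), -1.83 (large, bacterial counterpart, 30 tested genes) and -1.69 (large, mitochondria-specific, 19 tested genes). The sums over all 16, 30 and 20 genes of these classes were 2.90-fold, 2.57-fold and 3.57-fold lower. Single genes set part of this order of sums: without Mrpl33 the large-subunit genes with a bacterial counterpart were 3.92-fold lower (3.80 to 4.05), and without Mrps21 the small-subunit genes with a bacterial counterpart were 3.73-fold lower (3.56 to 3.91). The same 9 genes had the lowest class median in CAF-1 OFF too, -0.44 at 96 h with all below 0, against -0.18 to -0.30 in the other classes.

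The promoters of the members were searched for short motifs. RefSeq promoters of the GRCm38.p6 build, from 250 bases before to 50 after a transcript start, were at hand for 68 of the 77 members (74 promoters). No promoter was at hand for Mrps35, Mrpl13, Mrpl54, Mrps34, Mrpl38, Mrps28, Mrpl15, Mrpl19 and Mrpl4. The ETS core CCGGAAG, read on both strands as all motifs here, was in 33.8% of member promoters, 21.8% of the promoters of genes past the 20 CPM limit and 8.86% of all 32851 promoters. The YY1 core AAGATGG was in 17.6%, 8.46% and 6.34%, and the NRF1 core GCATGCG in 10.8%, 7.54% and 3.58%. The E-box CACGTG was in 9.46%, 10.8% and 7.15%, and the GC box GGGCGG in 52.7%, 63.2% and 35.7%. None of these strings contains another. Another gene started on the opposite strand within 1000 bases of 40.5% of member promoters, against 24.6% and 15.1% in the same reference sets. At 96 h of HOXA9 OFF the 23 tested members with the ETS core had a median log2 ratio of -1.64 and the 42 without it -1.78, in overlapping ranges. The 8 with the NRF1 core had -1.34 and the 57 without -1.78. For the YY1 core the values were -1.98 (12 members) and -1.67 (53), for the E-box -1.88 (5) and -1.71 (60), and for the GC box -1.73 (34) and -1.69 (31), all in overlapping ranges. The genes lie on 17 chromosomes, with 10 on chromosome 11, 8 on 17 and 7 on 6.

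The promoters of the members at both ends of the range in HOXA9 OFF are shown, so that the sequences stand beside the levels. Each is the 150 bases before the transcript start of the promoter table, 5′ to 3′ on the strand of the gene, from the RefSeq table for GRCm38.p6, with capitals marking a match to any of the motifs above on either strand. The gene models lie at chr11:120484637-120488754 (Mrpl12), chr10:95480805-95501949 (Mrpl42), chr19:4962152-4966995 (Mrpl11), chr5:31613951-31622644 (Mrpl33), chr3:95862634-95871514 (Mrps21) and chr19:45005014-45006442 (Mrpl43). Mrpl12 (chr11:120484487-120484636, plus strand), Mrpl42 (chr10:95501950-95502099, minus strand) and Mrpl11 (chr19:4962156-4962305, plus strand) had log2 ratios of -3.73, -3.35 and -3.02. Mrpl33 (chr5:31613801-31613950, plus strand), Mrps21 (chr3:95871515-95871664, minus strand) and Mrpl43 (chr19:45006443-45006592, minus strand) had 0.58, 0.02 and -0.32.
Mrpl12: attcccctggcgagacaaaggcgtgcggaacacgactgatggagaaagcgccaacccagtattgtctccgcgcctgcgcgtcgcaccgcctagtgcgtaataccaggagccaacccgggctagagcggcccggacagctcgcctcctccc
Mrpl42: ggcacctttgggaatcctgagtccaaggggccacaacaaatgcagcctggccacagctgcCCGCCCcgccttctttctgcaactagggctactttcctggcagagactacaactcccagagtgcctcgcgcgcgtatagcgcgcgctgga
Mrpl11: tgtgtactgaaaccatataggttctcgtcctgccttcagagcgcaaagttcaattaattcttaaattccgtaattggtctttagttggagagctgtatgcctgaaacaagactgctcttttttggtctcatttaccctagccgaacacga
Mrpl33: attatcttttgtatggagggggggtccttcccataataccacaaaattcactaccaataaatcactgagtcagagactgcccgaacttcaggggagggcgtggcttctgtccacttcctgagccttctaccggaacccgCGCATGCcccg
Mrps21: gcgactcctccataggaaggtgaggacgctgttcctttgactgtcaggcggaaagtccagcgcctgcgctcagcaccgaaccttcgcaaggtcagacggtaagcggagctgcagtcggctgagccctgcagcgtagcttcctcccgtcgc
Mrpl43: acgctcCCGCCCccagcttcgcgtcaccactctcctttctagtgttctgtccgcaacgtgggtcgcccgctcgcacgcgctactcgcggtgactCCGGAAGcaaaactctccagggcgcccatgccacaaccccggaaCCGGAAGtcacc
The start listed for Mrpl11 lies 154 bases inside its gene model, so its window overlaps the model, whereas the other windows end at the edge of theirs. Mrpl12, Mrpl11 and Mrps21 hold no match in this window. Mrpl42 holds 1 GC box, Mrpl33 holds 1 NRF1 core close to the start, and Mrpl43 holds 3 matches, a GC box and a pair of ETS cores.

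Other genes of mitochondrial gene expression were set beside the members by lists. The 6 proteins of the mitochondrial ribosome with other names were 1.95-fold lower in sum at 48 h of HOXA9 OFF and 3.01-fold lower at 96 h, beside 1.68-fold and 2.99-fold for the members. Of the 6, 3 and then 5 were at least 2-fold lower, against 19.6% and 39.8% of all genes. The median log2 ratio of the 6 at 96 h was -2.16, against -1.78 for the members. Gadd45gip1 went from 333 to 75.3 and 39.4 CPM, Chchd1 from 260 to 95.7 and 49.1, and Ptcd3 from 48.2 to 9.60 and 3.40. Aurkaip1, a small-subunit protein, held 246, 243 and 232 CPM of the list sums of 1103, 565 and 366 CPM. The sum at 96 h thus rests largely on this gene. Of 12 mitochondrial translation factors 5 were high enough to be counted, and all 5 were at least 2-fold lower at 96 h. Tufm, the elongation factor that delivers tRNA, had 63.7, 20.1 and 6.81 CPM, and Tsfm, its exchange factor, 98.3, 26.0 and 5.67 CPM. The sum of the list was 5.98-fold lower (5.19 to 6.91). In CAF-1 OFF that sum was 1.64-fold lower at 96 h (1.53 to 1.77), more than the 1.16-fold of the members. Of the 5 counted genes 0 passed 2-fold there, against 0.856% of all genes lower and 5.22% higher by that size.

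Assembly factors of the ribosome were less affected. Sums in these lists cover all genes of the list, whereas counts and medians cover only those past the 20 CPM limit. Of 21 genes 6 were high enough, 1 of which, Noa1, was at least 2-fold lower at 96 h (49.2, 13.2 and 12.2 CPM), against 39.8% of all genes. The sum over all 21 was 1.89-fold lower (1.76 to 2.04), and the median log2 ratio of the 6 was -0.62, beside -0.56 over all genes. The 17 mitochondrial tRNA synthetases summed to a 4.14-fold lower level at 96 h. The 4 high enough had a median log2 ratio of -1.16, and 2 of them, Tars2 and Rars2, were at least 2-fold lower. The 15 factors that maintain mitochondrial DNA and RNA summed to a 3.48-fold lower level at 96 h. The 7 high enough had a median log2 ratio of -1.08, and 4 of them were at least 2-fold lower. Among these was Tfam, which packages the mitochondrial genome, at 59.4, 21.1 and 10.2 CPM. The 22 protein import genes summed to a 2.30-fold lower level at 48 h and a 3.44-fold lower level at 96 h. Of the 20 high enough, 10 and then 16 were at least 2-fold lower, against 19.6% and 39.8% of all genes. Hspa9, the import motor chaperone, had 438, 63.1 and 17.6 CPM, while Timm10b had 102, 138 and 175 CPM.

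The time course was set beside that of other lists. In HOXA9 OFF the members had reached 60.8% of their difference between 0 and 96 h by 48 h, the translation factors 71.9%, the import genes 79.6%, the S phase genes 70.4% and the G2/M genes 56.7%. The fold steps differed: the members were 1.68-fold lower over the first interval and 1.78-fold over the next, the import genes 2.30-fold and 1.5-fold, the S phase genes 2.83-fold and 4.32-fold, and the G2/M genes 2.27-fold and 36.9-fold. Cytosolic ribosomal protein genes had reached 3.11% and the mRNAs encoded in the mitochondrial genome 11.9%. Those mRNAs made up 5.23% of all UMIs at 0 h, 4.88% at 48 h and 2.29% at 96 h. Of the 11 high enough, 0 and then 8 were at least 2-fold lower, against 19.6% and 39.8% of all genes. By contrast, mt-Co1 stood at 6241, 8914 and 7727 CPM. For each 100 UMIs of mitochondrially encoded mRNAs there were 23.0 member UMIs at 0 h, 14.7 at 48 h and 17.6 at 96 h. For each 100 UMIs of cytosolic ribosomal proteins there were 4.24, 2.58 and 4.56. In CAF-1 OFF both ratios were lower at each step, from 23.6 to 20.5 and 18.2, and from 4.45 to 4.32 and 4.03. The sum of the mitochondrially encoded mRNAs was 1.11-fold higher at 96 h there, with a median log2 ratio of 0.03. Shares of mitochondrial mRNA depend on the 10% limit by which cells were kept.

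**Figure D4:**
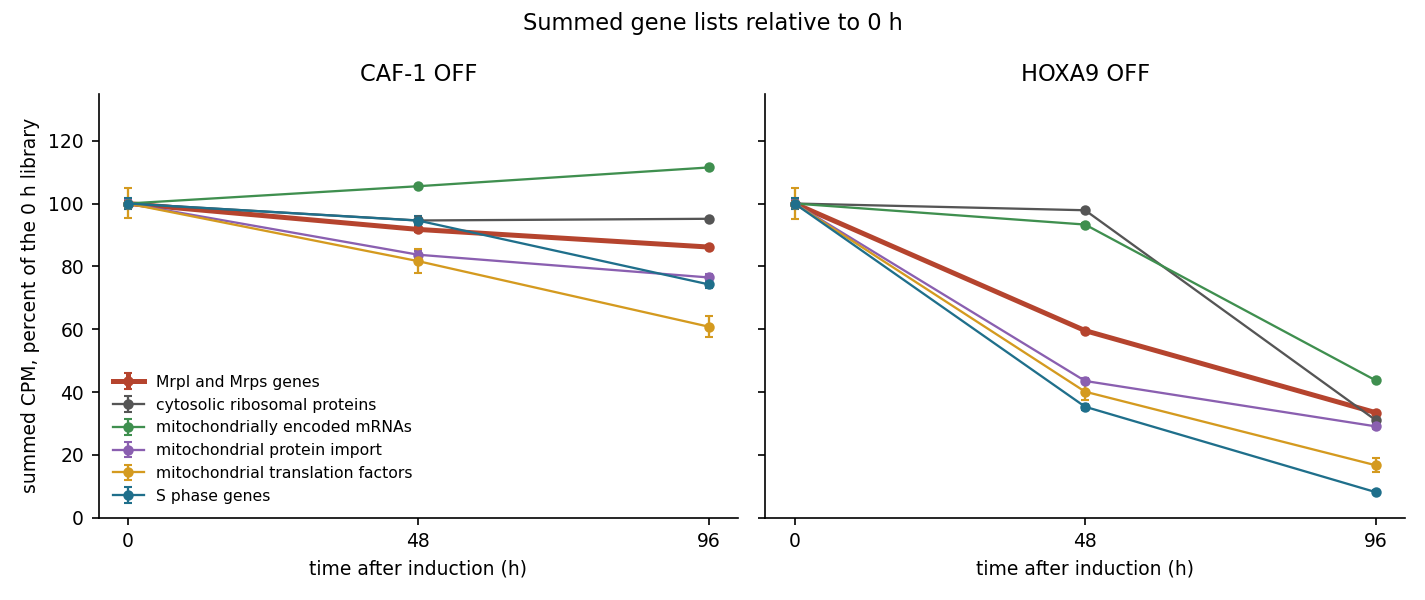
Summed CPM of the Mrpl and Mrps genes (thick line) and of 5 other gene lists as percent of the 0 h library, against time (h), in CAF-1 OFF (left) and HOXA9 OFF (right), with 95% Poisson intervals of the later level. At 48 h of HOXA9 OFF the members lie below the cytosolic ribosomal protein and mitochondrially encoded genes and above the import, translation factor and S phase genes.

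Cell cycle and lineage markers also differed between the libraries, not always in the direction of the members. In HOXA9 OFF the 25 S phase genes summed to 2814, 995 and 230.1 CPM and the 25 G2/M genes to 2476, 1089.55 and 29.5 CPM. In CAF-1 OFF the former stood at 3142, 2971 and 2333 CPM and the latter at 2535, 2893 and 2793 CPM. Neutrophil markers (6 of 6 detected) summed to 0.477, 8917 and 133169 CPM in HOXA9 OFF and to 0 to 29.5 CPM in CAF-1 OFF. Eosinophil markers (4 of 4), mostly Prg2, stood at 876, 16746.5 and 3099 CPM in HOXA9 OFF and 141 to 879 CPM in CAF-1 OFF. Mast cell or basophil markers (5 of 5) stood at 695, 426 and 14.2 CPM in HOXA9 OFF and 250.1 to 3983 CPM in CAF-1 OFF, and megakaryocyte markers (4 of 5, Gp1bb at 0) at 13.9 to 73.6 CPM and 45.6 to 2687 CPM. Erythroid markers (4 of 5, Car1 at 0) did not exceed 29.8 CPM, and lymphoid markers (4 of 5, Cd3e at 0) were at most 74.3 CPM. Already at 0 h the arms differed in eosinophil markers (141 CPM in CAF-1 OFF, 876 CPM in HOXA9 OFF) and in mast cell or basophil markers (250.1 and 695 CPM). The part of these shifts and differences in the member values was not tested.

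Within the libraries, cells could be set apart by their own UMIs. Each cell was thinned to 1300 UMIs, which left out 1 to 134 cells per library. A cell then held on average 15.9 ± 4.37 member UMIs (SD over 633 cells) at 0 h of CAF-1 OFF, then 14.6 ± 4.08 and 13.5 ± 4.10 at the later times. In HOXA9 OFF it held 15.3 ± 4.44, 8.83 ± 3.69 and 4.98 ± 2.74, where the draw of UMIs alone gives an SD of 3.92, 2.97 and 2.23. From the lower to the upper quartile a cell held 12 to 18 member UMIs at 0 h, 6 to 11 at 48 h and 3 to 6 at 96 h, and 1.82% of the cells held none at 96 h. The lower level was thus not limited to a few cells.

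**Figure D5:**
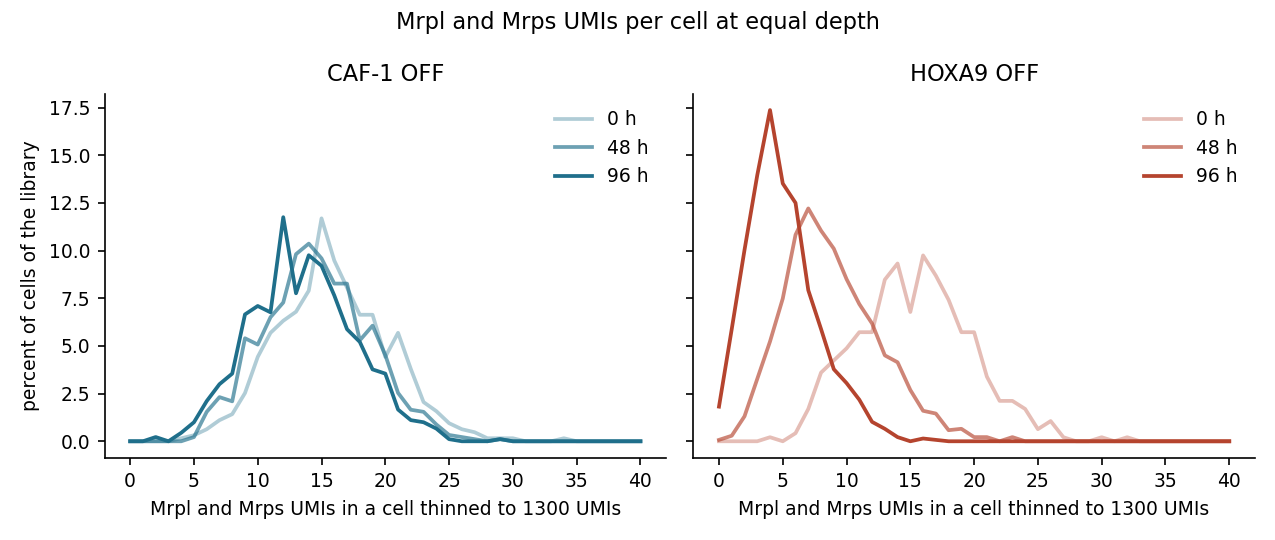
Share of cells (percent of the cells of a library) against the number of Mrpl and Mrps UMIs in a cell thinned to 1300 UMIs, in CAF-1 OFF (left) and HOXA9 OFF (right), with darker lines for later times. The CAF-1 OFF libraries have means of 15.9, 14.6 and 13.5 UMIs, and the HOXA9 OFF libraries 15.3, 8.83 and 4.98.

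Cells that expressed cell cycle genes held more member RNA at 48 h of HOXA9 OFF. Among thinned cells, the 447 with at least 2 UMIs of the 50 S phase and G2/M genes had 8123 CPM of members (7892 to 8358), and the 633 cells with none had 6116 CPM (5948 to 6288). At 0 h the 450 cells with at least 2 such UMIs had 11947 CPM (11668 to 12230.4), and the 6 cells with none had 7436 CPM (5646 to 9613), an interval that holds the value of such cells at 48 h. Of those 6 cells only 3 had fewer than 10 UMIs both of Prg2 and of S100a8 with S100a9, so the interval rests on few and mixed cells. At 96 h the 56 cells with at least 2 such UMIs had 3832 CPM (3396 to 4310) and the 1028 without 3766 CPM (3663 to 3872), which overlap. In CAF-1 OFF at 96 h the corresponding values were 10613 CPM in 793 cells and 8989 CPM in 54 cells. At 0 h of CAF-1 OFF they were 12290 CPM in 611 cells and 8547 CPM (6954 to 10395.5) in 9 cells. Cells of 1 library are not replicates, and these intervals cover counting error only.

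By lineage gene, cells rich in the eosinophil granule gene Prg2 had the lowest member level at 48 h of HOXA9 OFF. In thinned cells, the 223 with at least 10 UMIs of Prg2 alone had 5278 CPM (5017 to 5549), the 247 with at least 10 UMIs of S100a8 and S100a9 but fewer of Prg2 had 6363 CPM (6090 to 6645), and the 906 cells with less of both had 7284 CPM (7131 to 7440). The cytosolic ribosomal share did not follow this order, with 31.1%, 22.6% and 27.9% of UMIs. At 96 h the 1189 cells rich in S100a8 and S100a9 had 3572 CPM (3478 to 3667) and the 130 cells with less of both 5864 CPM (5504 to 6241), a level below that of such cells at 48 h. The 56 cells rich in Prg2 had 4657 CPM (4174 to 5179.6) at 96 h, above the cells rich in S100a8 and S100a9, so the order of these cells was the reverse of that at 48 h. The abundant RNAs used to sort the cells are part of the total that these levels are divided by.

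Barcodes removed by the limits on detected genes and mitochondrial UMIs held less member RNA. In the uninduced CAF-1 OFF library the 463 removed barcodes had 6664 CPM of members, against 12323 in the kept cells, or 10680.3 and 13002 when UMIs of the mitochondrial genome are left out of the total. In the uninduced HOXA9 OFF library the 927 removed barcodes had 3811 CPM, or 10383 against 12693 on the latter scale. With all barcodes counted, the summed level at 96 h was 0.894 of 0 h in CAF-1 OFF and 0.380 of 0 h in HOXA9 OFF, against 0.862 and 0.335 in the kept cells.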

How the data were processed

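Single-cell 3′ RNA-seq libraries (10x Chromium) of iGMP cultures were used, 1 per group. The authors mapped reads to GRCm38 (mm10) and deposited 1 joined table of UMI counts, in whole numbers, for each gene in each cell barcode, made with Cell Ranger (3.0.1 in the submitters' processing notes, where the study's methods name another release). The annotation release was not given in the sources used here. The study's mitochondrial limit had not been applied to the deposited counts, and no doublet caller was run here.

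Cells with 200 to 6000 detected genes and at most 10% mitochondrial UMIs were kept, and their UMIs were summed per library and divided by the total (CPM). Log2 ratios were taken after adding 10 CPM, for genes whose mean of the 6 libraries reached 20 CPM. A gene was called at a 2-fold difference on that scale. Folds with an interval were ratios of CPM with no addition. With 1 library per group, no p-value was computed. Intervals are 95% (exact Poisson for levels, exact Clopper-Pearson for folds) and cover counting error only. A floor of 3 UMIs (0.537 to 0.851 CPM) was set for a count of 0, a 1-sided limit that lies below the upper end of these intervals. Depth was 3524285 to 5589486 UMIs per library. Where cells were compared, each was thinned to 1300 UMIs.

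Named members were the 8 of highest mean level, the 5 highest and 5 lowest ratios of each comparison with 0 h and of the 0 h libraries, and 6 members chosen for the place of their proteins. In other lists up to 4 genes with the largest change past 2-fold were named. Aurkaip1, Timm10b and mt-Co1 lie outside this rule and were chosen after their values were seen, as was Mrpl1. The members, lists and naming rule were chosen with earlier results of these data known. The ratio step was tested on simulated counts. Alternatives were all barcodes, a 5% mitochondrial limit, leaving out the 2% deepest cells, edgeR TMM factors, median-of-ratios factors, totals without mitochondrially encoded and cytosolic ribosomal genes, added levels of 1 and 50 CPM, other filters, and 1.5-fold and 4-fold sizes. Promoters and coordinates came from RefSeq tables for GRCm38.p6, and motifs were exact matches on both strands. Software was R 4.3.3 with edgeR 4.0.16 (TMM factors only), and Python 3.11.15 with numpy 2.4.6, scipy 1.17.1, pandas 2.3.3 and matplotlib 3.10.9.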

Additional observations from a re-analysis of the deposited data

Results flagged for a closer look

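In 4 members at 96 h and 2 at 48 h the arms lay on opposite sides of their 0 h libraries, each by more than counting error. These are 5.41% of the 74 members at 96 h and 2.70% at 48 h, against 13.1% and 10.8% of all 4789 genes by the same rule. With 1 library per group the difference between the arms was not tested, and clone and treatment cannot be told apart. At 48 h the log2 ratio of Mrpl4 was 0.43 under CAF-1 OFF but -0.31 under HOXA9 OFF (difference, HOXA9 OFF minus CAF-1 OFF, of -0.74), and that of Mrps36 was 0.18 and -0.64 (difference -0.82). At 96 h Mrpl52 had 0.40 and -2.05 (difference -2.44), Mrps14 0.16 and -1.62 (difference -1.79), Mrpl4 0.33 and -1.07 (difference -1.40), and Mrpl24 0.28 and -0.78 (difference -1.06). In CAF-1 OFF these values all lie within the range that members showed between the uninduced clones.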

How the results depend on the processing

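No paired analysis was possible because each group had 1 library and no value came from a test. Of 160 alternative values for the sums, medians and counts of the members, 120 stayed close (a sum within its counting interval, a median within its interval over the genes, a count within 1.5 times) and 40 moved, and the cause was not tested. The summed level of CAF-1 OFF relative to 0 h (0.918 at 48 h, 0.862 at 96 h) was 0.95 and 0.894 with all barcodes, 0.906 and 0.911 with TMM factors, and 0.878 and 0.877 with median-of-ratios factors, and 0.901 at 48 h without mitochondrially encoded and cytosolic ribosomal genes in the total. That of HOXA9 OFF (0.596 and 0.335) was 0.667 and 0.380 with all barcodes, 0.735 and 0.469 with TMM, 0.703 and 0.495 with median-of-ratios factors, 0.587 and 0.25 without mitochondrially encoded and cytosolic ribosomal genes, 0.557 and 0.324 with the 5% mitochondrial limit, and 0.584 and 0.325 without the 2% deepest cells. The median log2 ratio of the members in HOXA9 OFF was -0.60 at 48 h and -1.39 at 96 h with TMM, -0.65 and -1.33 with median-of-ratios factors, and -0.62 and -1.08 after adding 50 CPM. At 96 h it was also -1.60 with all barcodes, -2.12 after adding 1 CPM and -2.20 without mitochondrially encoded and cytosolic ribosomal genes. The 28 members at least 2-fold lower at 48 h of HOXA9 OFF became 17 (TMM), 18 (median of ratios) and 7 (50 CPM added), with 53 at 1.5-fold and 1 at 4-fold. The 64 at 96 h became 42 with 50 CPM added and 28 at 4-fold, and 1 member was at least 2-fold higher with TMM or median-of-ratios factors. In CAF-1 OFF 1 member was lower at the 1.5-fold size at 48 h and 12 at 96 h, and 2 were at least 2-fold lower at 96 h after adding 1 CPM.

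Of the other values 10 changed sign. With TMM the ratio of the uninduced libraries was 1.003, the median log2 ratio of all genes at 48 h of HOXA9 OFF was 0.0491, that of the mitochondrially encoded mRNAs 0.0706 and that of the cytosolic ribosomal genes 0.23, and the latter was 0.0164 at 96 h of CAF-1 OFF. The cytosolic ribosomal genes also stood at 0.0657 (all barcodes) and 0.17 (median of ratios) at 48 h of HOXA9 OFF and at -0.0542 between the uninduced libraries with all barcodes. The mitochondrially encoded mRNAs at 96 h of CAF-1 OFF stood at -0.52 with all barcodes and -0.17 with the 5% limit. Leaving Mrpl33 or Mrps21 out of the sums of their subunit and class was added after the data were seen, moved 10 of 16 sums and turned none. Depth limits the lowest members: Mrps22 and Mrps28 rest on 2 and 15 UMIs at 96 h of HOXA9 OFF.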
